A study of Mus musculus with 8 samples.

Results

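The genes described here encode the subunits and assembly factors of respiratory complex I, taken as every probe set whose platform annotation gave 1 gene symbol beginning with Nduf. This rule found 88 probe sets for 44 genes among the 45101 probe sets of the deposited table. Of these, 78 probe sets of 36 genes stood for core and accessory subunits (symbols beginning with Ndufa, Ndufb, Ndufc, Ndufs or Ndufv), and 10 probe sets of 8 genes stood for assembly factors (Ndufaf). A further 10 Nduf probe sets carried several symbols and were left out. Ndufa4 and its relative Ndufa4l2 met the rule and were kept apart, because the Ndufa4 protein is now placed with complex IV.

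RNA of whole hearts from male mice aged 6 to 8 weeks was measured on 8 one-colour Affymetrix arrays. There were 4 groups of 2 biological replicates: MT-/- mice (labelled as null for metallothionein I and II) given doxorubicin (DOX), MT-/- mice given saline, wild-type MT+/+ mice given DOX, and MT+/+ mice given saline. DOX, an anthracycline used against cancer and toxic to the heart, was injected into the peritoneal cavity at a single dose of 15 mg/kg, saline in the same way, and every heart was taken on day 4. The sources used here do not give the kind of null allele, the strain, or whether an array held RNA of 1 heart or of several.

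Complex I is the entry point of the mitochondrial respiratory chain: it takes electrons from NADH, passes them along a flavin and a row of iron-sulfur clusters to ubiquinone, and pumps protons out of the matrix. Its peripheral arm holds the N module, where NADH is oxidized, and the Q module, where ubiquinone is reduced, and its membrane arm holds the proton pumps, whose cores are encoded by mitochondrial DNA. The remaining subunits are nuclear genes, and assembly factors join the modules without staying in the finished enzyme. Heart muscle is among the tissues richest in this enzyme, since its contraction rests on oxidative phosphorylation.

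The promoters of 5 member genes are shown because these genes carry the contrasts described below: Ndufs8 and Ndufc1 fell strongly after DOX, Ndufb8 fell less, Ndufaf5 fell furthest of the assembly factors at the brightest probe set of each gene, and Ndufv1 rose. Each run holds 300 bases on the gene's strand, 250 before and 50 after the start site, from RefSeq on GRCm38.p6. Capitals mark matches to the letters AANATGGC (YY1, a zinc finger factor) or to the core motif of NRF1 (nuclear respiratory factor 1, a regulator of respiratory genes). The windows are chr19:3912725-3913024 on the minus strand for Ndufs8, chr19:4012706-4013005 on the minus strand for Ndufv1, chr3:51408906-51409205 on the minus strand for Ndufc1, chr19:44555393-44555692 on the minus strand for Ndufb8 and chr2:140170396-140170695 on the plus strand for Ndufaf5.
Ndufs8: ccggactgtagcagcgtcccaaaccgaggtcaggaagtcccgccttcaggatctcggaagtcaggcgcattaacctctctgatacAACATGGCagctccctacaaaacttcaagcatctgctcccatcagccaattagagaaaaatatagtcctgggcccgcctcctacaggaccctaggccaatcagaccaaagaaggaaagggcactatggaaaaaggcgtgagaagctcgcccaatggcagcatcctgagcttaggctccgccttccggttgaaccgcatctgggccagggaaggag
Ndufv1: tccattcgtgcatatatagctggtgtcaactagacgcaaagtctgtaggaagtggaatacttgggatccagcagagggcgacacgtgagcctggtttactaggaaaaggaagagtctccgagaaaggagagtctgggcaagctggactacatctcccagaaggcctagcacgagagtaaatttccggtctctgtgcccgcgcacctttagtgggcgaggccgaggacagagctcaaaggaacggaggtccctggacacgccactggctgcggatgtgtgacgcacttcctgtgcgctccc
Ndufc1: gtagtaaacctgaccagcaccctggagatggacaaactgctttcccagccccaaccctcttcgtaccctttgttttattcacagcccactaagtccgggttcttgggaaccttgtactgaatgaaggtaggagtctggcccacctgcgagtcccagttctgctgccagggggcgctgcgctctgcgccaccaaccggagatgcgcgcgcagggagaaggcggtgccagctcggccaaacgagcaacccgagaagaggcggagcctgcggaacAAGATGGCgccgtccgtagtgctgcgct
Ndufb8: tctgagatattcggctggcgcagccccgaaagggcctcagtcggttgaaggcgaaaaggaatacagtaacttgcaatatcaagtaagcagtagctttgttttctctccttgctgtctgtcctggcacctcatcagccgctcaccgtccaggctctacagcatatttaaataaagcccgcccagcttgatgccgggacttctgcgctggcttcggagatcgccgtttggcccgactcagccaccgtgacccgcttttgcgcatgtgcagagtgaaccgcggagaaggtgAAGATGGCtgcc
Ndufaf5: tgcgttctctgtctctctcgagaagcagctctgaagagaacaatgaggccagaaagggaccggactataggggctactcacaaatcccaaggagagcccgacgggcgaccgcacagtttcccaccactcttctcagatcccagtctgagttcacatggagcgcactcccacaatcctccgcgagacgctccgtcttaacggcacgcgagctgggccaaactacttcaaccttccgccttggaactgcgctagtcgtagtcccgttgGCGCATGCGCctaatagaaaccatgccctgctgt
In these windows Ndufs8 held the YY1 letters 165 bases before the start site, Ndufc1 and Ndufb8 held them 23 and 39 bases after it, Ndufaf5 held the NRF1 motif 17 bases after it, and Ndufv1 held no match. The windows of Ndufb2, Ndufv2, Ndufv3 and Ndufab1, which also fell, held no match to either, so a match was not shared by all falling genes. Ndufs8 and Ndufv1 both lie on chromosome 19, and 8 protein-coding genes stand between them in the RefSeq order.

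Across the arrays, medians of the deposited signal lay between 80 and 87.4, and the 2 arrays of a group had a correlation of 0.976 to 0.984 with each other. Mt1, a gene named as null in MT-/-, read 12549 and 12850 with DOX against 4667 and 5322 with saline in MT-/- hearts, and 6735 and 9285 with DOX against 3722 and 4034 with saline in MT+/+ hearts, so the signal did not check the genotype and the groups are called by their labels. All 10 cardiomyocyte markers lay at or above percentile 88.2 of every array. The ratio of 3' to 5' actin control signal, a measure of RNA integrity, was 0.913 to 1.18 on the DOX arrays and 1.14 to 1.24 on the saline arrays. These ranges overlapped only through MT-/- DOX 2, at 1.18. The other DOX arrays, at 0.913, 0.948 and 1.05, lay below every saline array. Among arrays of the same replicate number, every DOX array lay below every saline array. For Gapdh the ranges of the same ratio overlapped, with 0.993 to 1.04 on the DOX arrays and 0.984 to 1.05 on the saline arrays.

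Of the 88 member probe sets, 81 for 43 genes passed the filter on dim probe sets and were tested. The 7 others, for Ndufa12, Ndufab1, Ndufb2, Ndufb4, Ndufb8, Ndufb9 and Ndufc2, lay between percentiles 2.4 and 45.3 of their arrays. Ndufb4 thus had no tested probe set, while the other 6 genes had brighter ones. Values below are deposited signals per array. A change is the difference of group means in log2(normalized intensity + 16), with the standard error of the limma fit after ±, and p-values are two-sided, with Benjamini-Hochberg adjustment over all 24751 tested probe sets and a threshold of 0.05. Averaged over genotypes, a comparison sets 4 DOX arrays against 4 saline arrays.

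After DOX, complex I transcripts were lower as a group, but not uniformly: some subunit genes fell by about log2 0.65, many by 0.2 to 0.5, others did not pass the test, and Ndufv1 rose. Averaged over genotypes, 34 member probe sets fell and 3 rose, the 3 being all tested probe sets of Ndufv1. Called members were thus 45.7% of 81, against 13.9% of all tested probe sets, and lower calls were 42% of members against 6.84% of all, while 7.03% of all were called higher. The median member change was -0.21, against -0.00 over all tested probe sets, and 68 of 81 members had a negative sign (84%, against 50.3% of all). In a fit blocked by replicate number, 47 members fell and 5 rose, the 2 further rises being probe sets of Ndufa7, and 27.1% of all tested probe sets were called. Counted by gene, with the brightest tested probe set standing for each, 20 of 43 genes fell and 1 rose, and the lower calls were 46.5% of genes, against 7.81% of all 13008 genes, of which 6.98% were called higher. Most of the 37 calls held whichever array was left out. Calls were fewest without MT-/- saline 1, both among members and over all tested probe sets. In RNA from whole tissue, fewer cells of a type and less RNA per cell cannot be told apart.

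**Figure D1:**
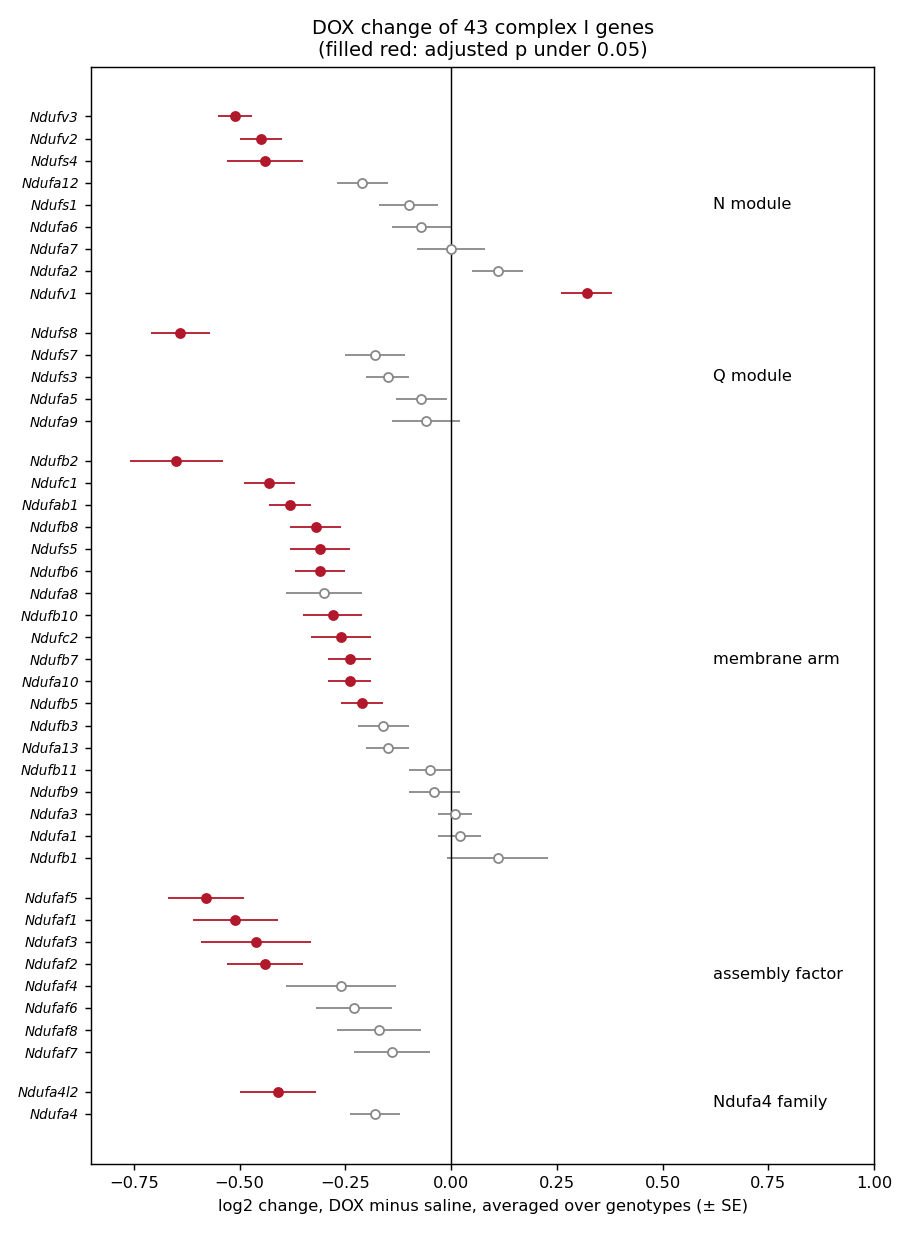
Change after DOX (log2, DOX minus saline, averaged over genotypes, with standard errors) of 43 complex I genes, grouped by module, 1 probe set a gene. Filled red points passed adjusted p 0.05; 20 lie below 0, down to Ndufb2 at -0.65, and Ndufv1 at 0.32 is the 1 called gene above 0.

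Among the core subunits of the N module, the catalytic front of the enzyme, Ndufv1 and Ndufv2 moved in opposite directions. Ndufv1, which binds NADH and the flavin, read 6998 and 7725 with DOX against 5510 and 6264 with saline in MT-/- hearts, and 6983 and 7275 with DOX against 5464 and 5980 with saline in MT+/+ hearts at its brightest probe set. All 4 DOX arrays lay above all 4 saline arrays. The averaged rise was 0.32 ± 0.06 (1.25-fold, adjusted p 0.0076), and the other Ndufv1 probe sets rose by 0.26 each (adjusted p 0.0257 and 0.0364). The call of the first probe set held whichever array was left out (adjusted p at most 0.0399), whereas the other 2 kept theirs in 2 of 8 such fits each (up to 0.107 and 0.139) and lost them under the deposited scaling (0.0566 and 0.077). Ndufv2, an iron-sulfur partner of Ndufv1, read 6484 and 6254 with DOX against 9002 and 9029 with saline in MT-/- hearts, and 7181 and 7664 with DOX against 9996 and 9802 with saline in MT+/+ hearts. Every DOX array was below every saline array, and the change was -0.45 ± 0.05 (1.37-fold lower, adjusted p 0.000694). All 3 Ndufv2 probe sets fell, by 0.45 to 0.50. Ndufs1, the subunit that carries most clusters of the N module, overlapped between groups: 4109 and 4673 with DOX against 4514 and 4949 with saline in MT-/- hearts, and 4391 and 4947 with DOX against 5213 and 4947 with saline in MT+/+ hearts (-0.10 ± 0.07, adjusted p 0.416).

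Ndufs8, a core subunit of the Q module whose iron-sulfur clusters carry electrons toward ubiquinone, had the largest fall of the 6 core genes tested. It read 4526 and 4095 with DOX against 6875 and 6755 with saline in MT-/- hearts, and 4970 and 5247 with DOX against 8301 and 7582 with saline in MT+/+ hearts. No DOX array reached the lowest saline array, and the change was -0.64 ± 0.07 (1.56-fold lower, adjusted p 0.000694). Of its 6 tested probe sets, 5 fell, by 0.64 to 0.77, and these 5 calls held whichever array was left out. The sixth lay between percentiles 44.9 and 53.0 of its arrays and had -0.01 ± 0.09 (adjusted p 0.978). The other core genes tested in the module had smaller differences. Ndufs7, which holds the last cluster before ubiquinone, had -0.18 ± 0.07 at its brightest probe set (adjusted p 0.154, or 0.0228 blocked), and its other probe set fell by 0.25 ± 0.06 (adjusted p 0.0206), a call kept in 4 of 8 fits with an array left out (up to 0.0774). Ndufs3 read 5395 and 5480 with DOX against 5963 and 6083 with saline in MT-/- hearts, and 5616 and 5551 with DOX against 6101 and 6455 with saline in MT+/+ hearts. These groups did not overlap, yet the change of -0.15 ± 0.05 missed the threshold (adjusted p 0.0772, or 0.0248 blocked). Of the 6 core genes tested, then, 2 fell, 1 rose and 3 did not pass, beside 7.81% of all genes called lower and 6.98% higher.

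**Figure D2:**
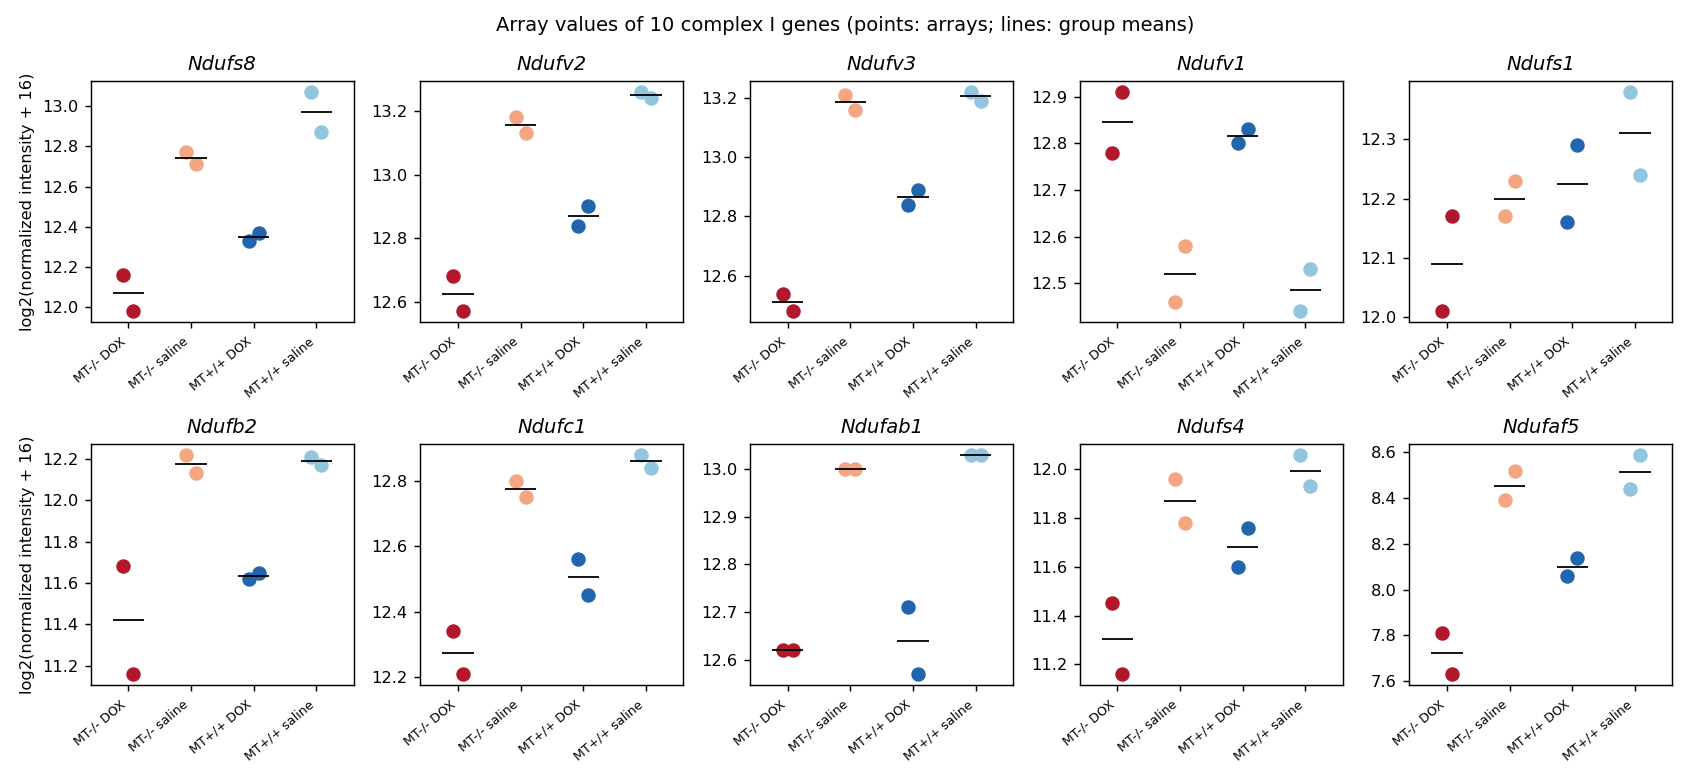
Values of 10 complex I genes on each array, as log2(normalized intensity + 16) on axes that do not start at 0, with points for arrays and lines for group means. Ndufv1 is higher on DOX arrays (a rise of 0.32), Ndufs1 overlaps between groups, and the other 8 genes are lower on DOX arrays in both genotypes.

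The accessory subunits surround the core and are needed for stability and assembly. Of 27 such genes, 13 fell and none rose (48.1%, beside 7.81% of all genes called lower). In the N module, Ndufv3 read 5857 and 5822 with DOX against 9410 and 9202 with saline in MT-/- hearts, and 7180 and 7624 with DOX against 9551 and 9531 with saline in MT+/+ hearts. Its groups were well apart, and it fell by 0.51 ± 0.04 (1.43-fold lower, adjusted p 0.000343). Ndufs4, whose loss causes a fatal mitochondrial encephalopathy in mice and a form of Leigh syndrome in humans, read 2823 and 2449 with DOX against 3831 and 3643 with saline in MT-/- hearts, and 2997 and 3519 with DOX against 4232 and 3956 with saline in MT+/+ hearts. All DOX values lay below all saline values (-0.44 ± 0.09, 1.35-fold lower, adjusted p 0.0137, up to 0.0651 with 1 array left out). Another Ndufs4 probe set fell by 0.78 ± 0.10 (adjusted p 0.00202), 1 more had -0.39 ± 0.11 (adjusted p 0.0528, or 0.00436 blocked), and the dimmest had 0.10 ± 0.12 (adjusted p 0.664). The remaining genes of the N and Q modules, Ndufa2, Ndufa5, Ndufa6, Ndufa7, Ndufa9 and Ndufa12, had no call at any probe set, and with the block Ndufa12 passed at all 3 tested probe sets (at the brightest -0.21 ± 0.06, adjusted p 0.0673, or 0.00685 blocked) and Ndufa5 at its dimmer one (-0.17 ± 0.06, adjusted p 0.0817, or 0.0283 blocked). For Ndufa7 the 5 probe sets ran between -0.00 and 0.34, and the highest of these (0.34 ± 0.11, adjusted p 0.0737) and the next (0.16 ± 0.08, adjusted p 0.218) passed as higher with the block (0.0129 and 0.0416). For Ndufa3, a subunit of the membrane arm, the 3 probe sets ran between -0.04 and 0.02, so the signs differed within both genes.

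In the membrane arm 11 of 19 genes were lower and none higher (57.9%, beside 7.81% of all genes called lower). At the brightest probe set of each gene, Ndufb2 had the largest change of the members. It read 3265 and 2427 with DOX against 4654 and 4602 with saline in MT-/- hearts, and 3027 and 3218 with DOX against 4675 and 4689 with saline in MT+/+ hearts. The 4 saline arrays were nearly level and every DOX array lay below them (-0.65 ± 0.11, 1.57-fold lower, adjusted p 0.0055). Ndufc1 read 5142 and 4822 with DOX against 7009 and 6947 with saline in MT-/- hearts, and 5833 and 5645 with DOX against 7389 and 7397 with saline in MT+/+ hearts. Its DOX arrays were all lower (-0.43 ± 0.06, 1.35-fold, adjusted p 0.00202), and a further probe set fell by 0.44 (adjusted p 0.00222). Ndufab1, the mitochondrial acyl carrier protein, which also serves fatty acid synthesis and iron-sulfur cluster assembly, read 6231 and 6383 with DOX against 8065 and 8213 with saline in MT-/- hearts, and 6567 and 6113 with DOX against 8019 and 8410 with saline in MT+/+ hearts. It fell by 0.38 ± 0.05 (1.30-fold, adjusted p 0.00184). Its dim probe set, between percentiles 25.7 and 69.3, fell by 0.94 ± 0.13 (adjusted p 0.00236), while 2 others of this gene had -0.21 and -0.04 without a call.

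Smaller falls were called for 8 more genes of the membrane arm. Ndufb8, a subunit whose protein is often blotted as a marker of assembled complex I, fell by 0.32 ± 0.06 (adjusted p 0.00801) and Ndufb6 by 0.31 ± 0.06 (adjusted p 0.0095), and both calls held in all 8 fits with an array left out. The calls of Ndufs5 (-0.31 ± 0.07, adjusted p 0.0182), Ndufb10 (-0.28 ± 0.07, 0.0371), Ndufc2 (-0.26 ± 0.07, 0.0314), Ndufb7 (-0.24 ± 0.05, 0.0146), Ndufa10 (-0.24 ± 0.05, 0.0219) and Ndufb5 (-0.21 ± 0.05, 0.0208) were each lost without at least 1 array, with adjusted p up to 0.0727, 0.136, 0.0979, 0.0685, 0.0923 and 0.0846 in the same order. Of the tested probe sets, 1 of 3 passed for Ndufc2, an _s_at probe set, 1 of 2 for Ndufb7 and 1 of 2 for Ndufb5. With the block the other probe sets of Ndufb7 and Ndufb5 passed (adjusted p 0.0108 and 0.0168). The others of Ndufc2 did not (0.132 and 0.0562). Ndufs5, Ndufb7 and Ndufb10 face the intermembrane space. Other genes of the membrane arm had little difference: Ndufa1 had 0.02 ± 0.05, Ndufa3 0.01 ± 0.04, Ndufb9 -0.04 ± 0.06 and Ndufb11 -0.05 ± 0.05. The first of these read 8843 and 9571 with DOX against 9041 and 9514 with saline in MT-/- hearts, and 9052 and 10019 with DOX against 9307 and 9097 with saline in MT+/+ hearts, so its groups overlapped. Ndufa8 (-0.30 ± 0.09, adjusted p 0.0628), Ndufb3 (-0.16 ± 0.06, 0.114), Ndufa13 (-0.15 ± 0.05, 0.0871) and Ndufb1 (0.11 ± 0.12, 0.612) did not pass either, and the first 3 of these passed with the block (0.00436, 0.0422 and 0.0167). In the Ndufa4 family, Ndufa4 had -0.18 ± 0.06 (adjusted p 0.103, or 0.00612 blocked), and Ndufa4l2, which in other settings is induced by low oxygen and dampens complex I, fell by 0.41 ± 0.09 (adjusted p 0.0206, up to 0.0745 with 1 array left out).

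**Figure D3:**
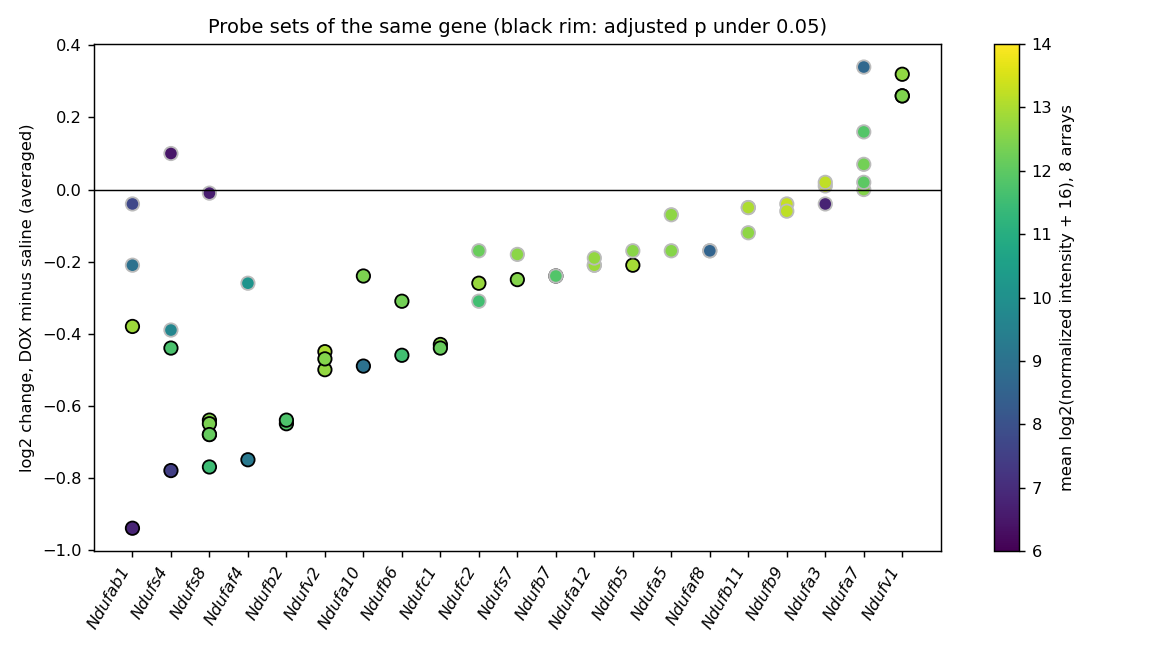
Change after DOX (log2, averaged over genotypes) at each tested probe set of the 21 genes that had more than 1, coloured by mean level, with a black rim for adjusted p under 0.05. The 3 probe sets of Ndufv1 all lie above 0, 5 of the 6 of Ndufs8 lie at -0.64 or lower, and those of Ndufab1 spread between -0.94 and -0.04.

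All 10 probe sets of assembly factors had a negative sign after DOX, with a median of -0.35, and 5 of them, each for a different gene, fell (50%). Over all tested probe sets 50.3% had a negative sign, the median was -0.00 and 6.84% were called lower. Ndufaf5, which hydroxylates Ndufs7 during assembly, read 206 and 183 with DOX against 315 and 375 with saline in MT-/- hearts, and 245 and 269 with DOX against 321 and 354 with saline in MT+/+ hearts. Each DOX array was below each saline array (-0.58 ± 0.09, 1.49-fold lower, adjusted p 0.00567), and the call held whichever array was left out. Ndufaf1, which helps to build the membrane arm, read 393 and 371 with DOX against 641 and 588 with saline in MT-/- hearts, and 463 and 487 with DOX against 575 and 630 with saline in MT+/+ hearts. It fell by 0.51 ± 0.10 (adjusted p 0.0118, or 0.0618 without MT-/- saline 1). Ndufaf2, a relative of Ndufa12 that acts when the N module is attached, fell by 0.44 ± 0.09 (adjusted p 0.0179, up to 0.0834 with 1 array left out), with values of 503 and 530 with DOX against 738 and 741 with saline in MT-/- hearts, and 578 and 684 with DOX against 799 and 784 with saline in MT+/+ hearts. Ndufaf3 and Ndufaf4 work together on the Q module. Ndufaf3 fell by 0.46 ± 0.13 (adjusted p 0.0489), a call that was kept in 1 of 8 fits with an array left out (up to 0.179). The probe sets of Ndufaf4 differed: the dimmer fell by 0.75 ± 0.14 (adjusted p 0.00856), whereas the brighter had -0.26 ± 0.13 (adjusted p 0.227). Ndufaf6 (-0.23, adjusted p 0.132), the methyltransferase Ndufaf7 (-0.14, 0.368) and Ndufaf8, the partner of Ndufaf5 (-0.17, 0.315 at its brighter probe set), did not pass.

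Within each genotype the direction was shared, and fewer members passed. In MT-/- hearts 23 member probe sets fell and none rose (28.4% of members, beside 3.38% of all tested probe sets called lower, 2.83% higher and 6.21% either way), with a median of -0.28. In MT+/+ hearts 11 fell and none rose (13.6%, beside 1.26% lower, 1.22% higher and 2.48% either way), with a median of -0.16. The medians over all tested probe sets were 0.01 and -0.01 in the same order. In the blocked fit, the counts were 42 lower and 3 higher in MT-/- hearts, and 22 lower and 3 higher in MT+/+ hearts, with 16.9% and 11.1% of all tested probe sets called. Most of the 23 MT-/- calls were lost without at least 1 array. The MT-/- count dropped without MT-/- DOX 2, MT-/- saline 1 or MT-/- saline 2. All 11 MT+/+ calls were lost with any 1 of the 4 MT+/+ arrays left out, and most of them without either MT-/- saline array. In each of these fits calls over all tested probe sets dropped as well.

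The genes called in both genotypes were Ndufs8, Ndufv2, Ndufv3, Ndufab1 and, at the probe set with the larger fall, Ndufs4. Ndufs8 fell by 0.67 ± 0.09 in MT-/- (adjusted p 0.00574) and by 0.62 ± 0.09 in MT+/+ (adjusted p 0.0156). Ndufv2 fell by 0.53 ± 0.07 in MT-/- (adjusted p 0.00353) and by 0.38 ± 0.07 in MT+/+ (adjusted p 0.0248). For Ndufv3 the falls were 0.68 ± 0.06 in MT-/- (adjusted p 0.00119) and 0.34 ± 0.06 in MT+/+ (adjusted p 0.0327). Ndufab1 was alike in both, with -0.38 ± 0.07 in MT-/- (adjusted p 0.0163) and -0.39 ± 0.07 in MT+/+ (adjusted p 0.0273). Several genes passed in MT-/- and missed in MT+/+, among them Ndufc1 (-0.50, adjusted p 0.00932, and -0.36, adjusted p 0.0542), Ndufb2 (-0.76, 0.0233, and -0.55, 0.103) and Ndufaf5 (-0.74, 0.0162, and -0.42, 0.153). With the block, the MT+/+ values of Ndufc1 and Ndufb2 passed (0.00682 and 0.0217) and that of Ndufaf5 did not (0.0507). Ndufv1 was higher by 0.32 ± 0.08 in MT-/- (adjusted p 0.0516, or 0.00614 blocked) and by 0.33 ± 0.08 in MT+/+ (adjusted p 0.0773, or 0.00913 blocked).

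Whether the DOX effect differed between the genotypes was tested by the interaction, the change in MT-/- minus that in MT+/+. No member passed limma's threshold, nor did any of the 24751 tested probe sets (0%). At an unadjusted p under 0.05 there were 4 members and 573 of all tested probe sets, and with the block 0 members and 1 of all passed. Most members had a negative value (69 of 81, median -0.10, against -0.00 over all tested probe sets). The members with the smallest p were Ndufv3 (-0.34 ± 0.09, p 0.00467), Ndufa13, which is also known as a cell death regulator (-0.29 ± 0.10, p 0.0192), and a probe set of Ndufab1 (0.44 ± 0.16, p 0.0263), all with an adjusted p of 1. Ndufa13 read 7436 and 7073 with DOX against 8727 and 8603 with saline in MT-/- hearts (-0.29 ± 0.07, adjusted p 0.0471), and 9335 and 9572 with DOX against 10133 and 9281 with saline in MT+/+ hearts (-0.01 ± 0.07, adjusted p 0.981). A call in 1 genotype alone is therefore not shown to be a difference between them.

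**Figure D4:**
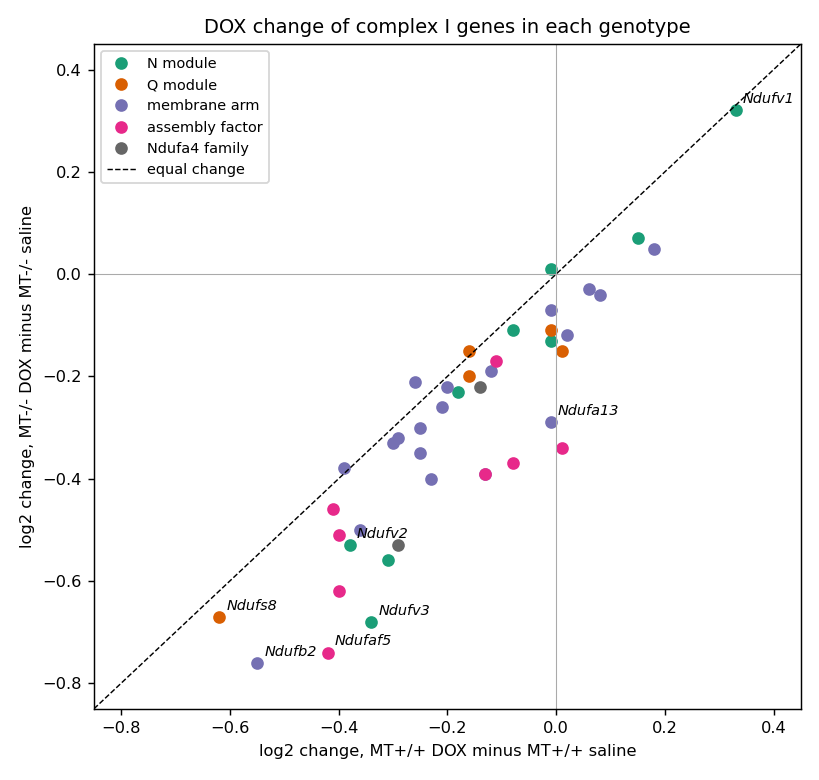
Change after DOX (log2) of 43 complex I genes in MT-/- hearts (vertical axis) and in MT+/+ hearts (horizontal axis), coloured by module, with a dashed line for equal change. Ndufv3 (-0.68 in MT-/- and -0.34 in MT+/+) and Ndufa13 (-0.29 and -0.01) lie below the line, and Ndufs8 (-0.67 and -0.62) lies near it.

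Set against MT+/+, MT-/- hearts had slightly lower values at most complex I probe sets under either treatment, with few calls. Most genes in other mitochondrial lists had the same sign, as given below. Averaged over treatments, 73 of 81 members had a negative sign (90.1%, against 50.3% of all), the median was -0.14 (against -0.00), and 2 members passed, both lower (2.47%, beside 0.465% of all tested probe sets called lower and 0.905% either way). With the block the count was 17, all lower, beside 4.86% of all tested probe sets. Without MT-/- DOX 1 more members passed, and without any other single array fewer did. Calls over all tested probe sets were fewer in each of these fits. Ndufa12, an accessory subunit of the N module, read 4677 and 5770 in MT-/- against 7800 and 9460 in MT+/+ hearts given DOX, and 5700 and 6732 in MT-/- against 9203 and 9959 in MT+/+ hearts given saline at 1 of its probe sets. The MT-/- arrays were all lower, by 0.67 ± 0.08 (1.59-fold, adjusted p 0.00949), and the call held whichever array was left out (at most 0.0458). The other tested probe sets of this gene had smaller differences, of -0.16 (adjusted p 0.356) and -0.05 (adjusted p 0.757). The called Ndufa12 probe set ends in _x_at and the others in _s_at or _x_at, so they can bind related transcripts. Ndufs5 read 4324 and 3873 in MT-/- against 5116 and 5441 in MT+/+ hearts given DOX, and 5017 and 5183 in MT-/- against 6710 and 6410 in MT+/+ hearts given saline. It was lower by 0.40 ± 0.07 (1.32-fold, adjusted p 0.0373), and the call was kept in 1 of 8 fits with an array left out, that without MT-/- DOX 1 (up to 0.161 in the others).

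Under each treatment alone no member passed. Under DOX the members with the smallest p were Ndufa12 (at the same probe set, -0.73 ± 0.12, adjusted p 0.0553), Ndufa13 (-0.41 ± 0.07, adjusted p 0.0727) and Ndufv3 (-0.36 ± 0.06, adjusted p 0.0842). The median there was -0.18, 31 members had an unadjusted p under 0.05 (38.3%, beside 7.39% of all tested probe sets), and at the adjusted threshold 0.283% of all tested probe sets passed. With the block 5 members passed, among them these 3 (0.000518, 0.00654 and 0.0156). The blocked count over all tested probe sets is given in the last section. Without MT-/- DOX 1 some members passed as well. Under saline the median was -0.09, 6 members had an unadjusted p under 0.05 (7.41%, beside 8.62% of all tested probe sets), and at the adjusted threshold 0.186% of all tested probe sets passed. The smallest p were those of Ndufa12 (at the same probe set, -0.61 ± 0.12, adjusted p 0.168), Ndufs5 (-0.38 ± 0.09, adjusted p 0.315) and the probe set of Ndufab1 named for the interaction (-0.40 ± 0.12, adjusted p 0.402). With the block Ndufa12 alone passed there (0.00168).

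Other genes of the same pathway were read from lists. Of 10 tested complex I assembly factors without an Nduf symbol, 3 fell after DOX and none rose (30%, beside 7.81% of all genes called lower): Tmem70 (-0.52 ± 0.09, adjusted p 0.00652), Timmdc1 (-0.40 ± 0.10, adjusted p 0.0318) and Tmem126b (-0.31 ± 0.09, adjusted p 0.0458), all of which act on the membrane arm. Timmdc1 also differed by genotype, with 364 and 316 in MT-/- against 138 and 144 in MT+/+ hearts given DOX, and 440 and 444 in MT-/- against 185 and 212 in MT+/+ hearts given saline (1.10 ± 0.10, adjusted p 0.00197). Here the MT-/- arrays were higher, opposite in sign to most Nduf members. Of the subunits encoded by mitochondrial DNA, only ND5 had a named probe set, at 0.06 ± 0.03 after DOX (adjusted p 0.28). Among 11 regulators of respiratory genes, which include Ppargc1a, Nrf1, Gabpa, Tfam and Yy1, 1 fell, Gabpb1, a subunit of the ETS factor GABP (-0.38 ± 0.08, adjusted p 0.0147), which is 9.09% of the list, near the 7.81% of all genes, and the list's median was -0.08.

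Complexes II to V had 13 lower and 0 higher of 45 genes (28.9%, median -0.15), and mitochondrial ribosomal proteins had 19 lower and 0 higher of 76 (25%, median -0.23), beside 46.5% and a median of -0.23 for the 43 Nduf genes and 7.81% of all genes called lower. Cytosolic ribosomal proteins went the other way, with 8 higher and 1 lower of 46 (median 0.11, beside 6.98% of all genes called higher). Of 9 markers of mitochondrial content, the citric acid cycle enzymes citrate synthase (Cs, -0.38 ± 0.06, adjusted p 0.00596) and Idh3a (-0.37 ± 0.06, adjusted p 0.00404) fell, and the import receptor Tomm20 rose (0.29 ± 0.07, adjusted p 0.0287). For MT-/- against MT+/+ averaged over treatments, 40 of 45 genes of complexes II to V had a negative sign (88.9%, median -0.08). So did 54 of 76 mitochondrial ribosomal proteins (71.1%, -0.09), 8 of 9 content markers (88.9%, -0.09) and 38 of 43 Nduf genes (88.4%, -0.13). The shares were 26.1% for cytosolic ribosomal proteins (median 0.06) and 51.4% for all genes. Whether the lists differ from each other was not tested.

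**Figure D5:**
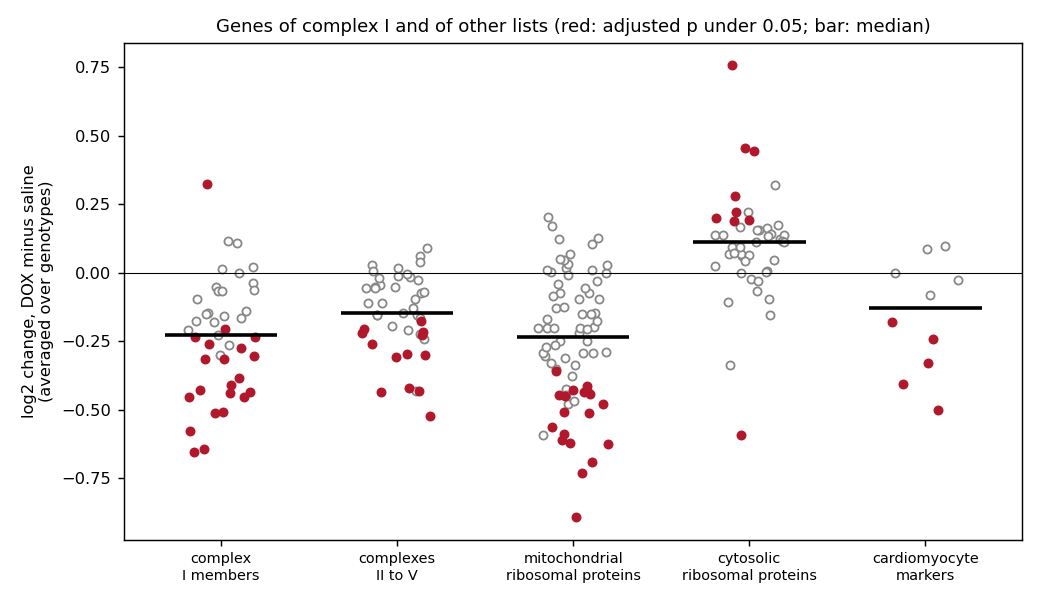
Change after DOX (log2, averaged over genotypes) of each gene in 5 lists, with red points for adjusted p under 0.05 and black bars for medians. The median lies at -0.23 for complex I members and for mitochondrial ribosomal proteins, at -0.15 for complexes II to V, at 0.11 for cytosolic ribosomal proteins and at -0.13 for cardiomyocyte markers.

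Markers of several cell types were also lower on DOX arrays, beside 7.81% of all genes called lower. Of 10 cardiomyocyte markers 5 fell, Ckm among them (-0.41 ± 0.05, adjusted p 0.00108), with a list median of -0.13 and a summed signal of 114477 to 120701 on the DOX arrays against 125448 to 130877 on the saline arrays. Of 10 fibroblast markers 7 fell (median -1.41, sums of 10729 to 12104 against 17455 to 22153), of 10 endothelial markers 4 fell (median -0.27, sums of 12711 to 14523 against 15504 to 17356), and of 10 macrophage markers 9 fell (median -0.69, sums of 4910 to 6623 against 8849 to 11132), each with DOX arrays before saline arrays. Of 5 tested red cell markers 2 fell (sums of 341 to 401 on the DOX arrays against 1074 to 1809 on the saline arrays). No marker was called higher. Some had a positive change without a call, the largest for Pecam1 at 0.26, and Myl2 had -0.00. No tested marker had a signal of 0 on any array. The part of cell makeup and of the actin ratio given above in the complex I changes was not tested.

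A promoter was found in the RefSeq table for 39 of the 44 member genes. The YY1 letters AANATGGC, searched on both strands, stood in 13 of them (33.3%), against 6.96% of the 27025 genes with a promoter. A gene was counted if any of its windows, of the same length, held a match. The NRF1 core motif stood in 7 (17.9%, against 5.19%), and the ETS letters CCGGAAGT in 1 (2.56%, against 4.31%). At least 1 of the 3 was present in 21 member genes (53.8%, against 15.0%), and matches to different motifs did not overlap. In 7 member genes (17.9%, against 1.65% of all) the YY1 letters lay on the gene's strand within the 50 bases after the start site, as in the Ndufc1 and Ndufb8 runs printed above. Of the 20 genes that fell after DOX, 19 had a promoter; 7 of these held the YY1 letters (36.8%), 2 the NRF1 motif (10.5%) and 0 the ETS letters. The YY1 letters contain ATG, and whether matches after the start site lie at a translation start was not checked. These shares describe the windows and are not evidence of binding.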

How the data were processed

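Total RNA of mouse hearts was labelled with biotin and hybridised to 8 Affymetrix arrays, per the labels' protocols. The deposited values are linear intensities, 1 per probe set and array, made with GCOS 1.4 per the submitters' processing notes. The signal algorithm and the scaling target were not given in the sources used here. Groups and replicate numbers came from the labels, and 2 arrays per group limit the precision.

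After 64 array controls were left out, the intensities were quantile-normalized, since trimmed array means differed by 8.06%, and taken as log2(intensity + 16), a scale on which changes of dim probe sets are understated. The filter kept those at or above the array median on at least 2 of 8 arrays. limma 3.58.1 in R 4.3.3 was fitted to 4 group means (residual degrees of freedom 4, prior 4.66, mean-variance trend) for 7 comparisons, with Benjamini-Hochberg adjustment over all tested probe sets. No exact test was made. For 2 arrays against 2, as within a genotype or a treatment, its smallest p is 0.333. Same-numbered arrays deviated together (correlation 0.36 to 0.542 over 6 pairs of groups). Fits with the replicate number as a block are therefore given for the counts, and for some of the genes whose call they changed. The fit was also run on simulated data in which arrays varied independently and planted changes were larger than most member changes. That run does not show how well changes of the size seen here are found.

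Gene symbols came from the platform annotation; the symbols of all 44 members were current in RefSeq by Entrez number. Named were called members, core subunits, assembly factors, the largest changes, the smallest p where none passed, and genes whose probe sets differed in sign; Ndufa1 values were added after they were seen. Probe sets ending in _s_at or _x_at (21 members) can bind related transcripts. The members and lists were chosen with earlier results of these data known. Alternatives were other scalings, pseudocounts, filters and variance priors, the compared groups alone, gene means, and leaving out each array; removal of the _s_at and _x_at members was added after the data were seen.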

Additional observations from a re-analysis of the deposited data

How the results depend on the processing

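No result reversed under any alternative run. The median member change after DOX averaged over genotypes stayed between -0.18 and -0.23, while the median of all tested probe sets lay between -0.008 and 0.015. With the replicate number as a block, calls among the 81 members numbered 52 (DOX averaged), 45 (DOX, MT-/-), 25 (DOX, MT+/+), 17 (genotype averaged), 5 (genotype, DOX alone), 1 (genotype, saline alone) and 0 (interaction), beside 6702, 4188, 2740, 1202, 383, 209 and 1 of all 24751 probe sets; no call among the members was lost with the block. With median centring, no filter or eBayes without the trend, the calls for DOX in MT+/+ numbered 7, 7 and 4, against 11. Over all tested probe sets 2.15%, 1.11% and 2.39% were called there, against 2.48%. Without the trend, member calls numbered 29 for DOX averaged, against 37, and 19 for DOX in MT-/-, against 23. Calls over all tested probe sets hardly moved there, with 13.7% against 13.9% and 6.25% against 6.21%. For genotype averaged, median centring and eBayes without the trend left 1 of 2 calls, that of Ndufa12. Over all tested probe sets 0.897% and 0.82% were called there, against 0.905%. Gene means gave 2 genotype calls, against 1 with the brightest probe set. Without the _s_at and _x_at probe sets, added after the data were seen, the calls were 29 (DOX averaged), 15 (DOX, MT-/-), 6 (DOX, MT+/+) and 1 (genotype averaged). With only those members removed, calls over all tested probe sets were 3425, 1530, 608 and 223 in the same order. That 1 call was of Ndufs5, because the called Ndufa12 probe set ends in _x_at. Fewer probe sets were counted there. With 1 array left out, a lone array being assumed to vary like the other groups, the counts ranged over 22 to 40 (DOX averaged), 6 to 28 (DOX, MT-/-), 0 to 15 (DOX, MT+/+), 1 to 4 (genotype averaged) and 0 to 2 (genotype, DOX alone). In the DOX comparisons and the averaged genotype comparison, calls over all tested probe sets also dropped in most of these fits. The causes of these shifts were not tested. Dim probe sets carry little signal above background, and signal over background could not be read from the deposited values.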
